A study of Mus musculus with 5 samples.

Results

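Sphk1 and Cers2 encode enzymes of sphingolipid metabolism, and each has a single cassette exon, an exon that a transcript either holds or skips, in the deposited splicing tables of the mouse left ventricle. They were found by gene symbol, with Cers2 listed in the tables under its older symbol Lass2. They make up 2 of 6616 exons, and both were among the 6331 exons present in all 6 tables. The genes were chosen with results of the same comparison known, so their values are given as a description, without a test.

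RNA sequencing was done on left ventricle of C57BL/6 mice, 3 samples labelled STZ and 2 labelled Control. Mice of the STZ group were injected intraperitoneally with streptozotocin at 70 mg/kg, dissolved in citrate buffer, on 5 days in a row from an age of 8 weeks. Control mice received the buffer alone, and all were 12 weeks old when the heart was taken. Streptozotocin is toxic to pancreatic beta cells, which make insulin, and serves to model type 1 diabetes, so any effect in the heart can come from the loss of insulin or from the agent itself. The labels number the samples without saying that each is a separate animal, and p-values measure only the spread between these samples.

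Sphingolipids are built on a sphingoid base. Ceramide synthases join such a base to a fatty acid, and Cers2 is a member of this family that uses very-long-chain acyl-CoA. Sphk1, sphingosine kinase 1, phosphorylates sphingosine to sphingosine-1-phosphate, a lipid that signals through G protein-coupled receptors and is exported in part by the transporter Spns2. Sphingosine can be a substrate of both enzymes, which turn it into ceramide or into a signalling lipid, but it is not the only base that ceramide synthases use. In the heart, ceramide accumulation is known from models of diabetes, and endothelial cells are a known source of sphingosine-1-phosphate.

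The exons and the junctions by which reads tell the isoforms apart are given here, since every inclusion value rests on them. The sequences are from GENCODE M21 transcripts on GRCm38, matched to the mm9 events of the tables by gene, exon length and the lengths of its flanking introns. The Cers2 exon lies at chr3:95124864-95124982 in mm9 and at chr3:95320942-95321060 in GRCm38, plus strand. The Sphk1 exon lies at chr11:116396566-116396681 in mm9 and at chr11:116535252-116535367 in GRCm38, plus strand. It has 116 nt, and the Cers2 exon is longer by 3 nt. Capitals mark the cassette exon's bases at a junction.
Cers2 cassette exon: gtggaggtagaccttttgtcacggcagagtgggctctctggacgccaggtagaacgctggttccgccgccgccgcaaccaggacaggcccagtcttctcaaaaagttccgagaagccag
Cers2 upstream exon joined to cassette exon: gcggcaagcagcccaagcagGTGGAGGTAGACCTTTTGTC
Cers2 cassette exon joined to downstream exon: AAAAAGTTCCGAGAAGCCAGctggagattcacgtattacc
Cers2 upstream exon joined to downstream exon: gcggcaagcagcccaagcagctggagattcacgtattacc
Sphk1 cassette exon: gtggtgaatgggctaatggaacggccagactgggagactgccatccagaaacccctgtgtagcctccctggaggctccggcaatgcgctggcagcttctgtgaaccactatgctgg
Sphk1 upstream exon joined to cassette exon: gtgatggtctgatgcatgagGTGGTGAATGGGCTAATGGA
Sphk1 cassette exon joined to downstream exon: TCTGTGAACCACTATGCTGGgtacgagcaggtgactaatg
Sphk1 upstream exon joined to downstream exon: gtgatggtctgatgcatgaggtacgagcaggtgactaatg

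The 2 exons were alike in ways that the choice of genes did not use. Both were coding, and both left a remainder of 2 when their length was divided by 3, so that skipping shifts the reading frame. Over all events, 46.2% of the 6616 exons had a length that is a multiple of 3. Both sat between short introns. The Cers2 exon had introns of 182 nt upstream and 129 nt downstream, and the Sphk1 exon 77 nt and 244 nt. The median event had 1973 nt and 1843 nt, and 3.22% of events had both introns under 250 nt. An upstream intron shorter than that of Sphk1 was found in 0.505% of events. Their GC content was 60.5% in Cers2 and 59.5% in Sphk1. The median was 50.0% (interquartile range 44.7% to 55.7%) over the 731 cassette exons of this series of 110 to 130 nt that matched an annotated exon.

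Skipping would end both reading frames early, at different places. In the annotated Cers2 transcript the exon is number 4 of 11, and the full frame has 380 codons. Without the exon, the frame kept 97 codons before the gap and met a stop after 116 codons. That stop lies in exon 5, 532 nt upstream of the last exon junction, and no annotated transcript of the gene (0 in GENCODE M21) holds the skipping junction. In the Sphk1 transcript the exon is number 3 of 4, and the frame of 388 codons shortened to 97, of which 92 precede the exon. Here the stop lies in the last exon, and 1 annotated transcript, which has no annotated protein, holds the skipping junction. A stop far upstream of the last junction is, as background, a feature by which cells recognise transcripts for decay. The decay of either transcript was not analysed here.

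**Figure D1:**
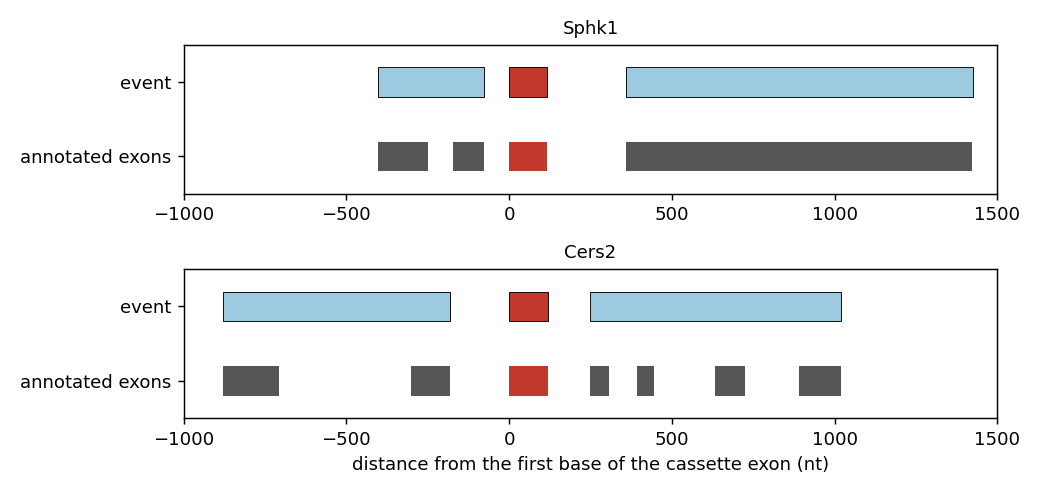
Map of the Sphk1 event (top) and the Cers2 event (bottom), with distance from the first base of the cassette exon in nt on the x axis. Blue boxes are the flanking segments of the deposited event, red boxes the cassette exon and grey boxes annotated exons. The Cers2 flanks of 698 and 770 nt cover 2 and 4 annotated exons with the introns between them, and the upstream Sphk1 flank of 326 nt covers 2.

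The flanking segments of the events were longer than the annotated exons next to the cassette exon. In Cers2 the upstream segment of 698 nt held 292 nt of exons and 406 nt of intron, and the downstream segment of 770 nt held 331 nt of exons and 439 nt of intron. In Sphk1 the upstream segment of 326 nt held 248 nt of exons and 78 nt of intron, and the downstream segment of 1064 nt matched a single annotated exon of 1063 nt. Reads spliced inside such a segment are not part of either isoform as the event defines them. Among all reads on the Cers2 event, 65.7%, 67.4% and 67.9% in STZ A, STZ B and STZ C and 62.1% and 63.9% in Control A and Control B fitted neither isoform. Over all events these shares were 46.9% to 49.1% in STZ libraries and 45.5% to 46.2% in Control libraries. The Cers2 shares were thus above those of the whole library in all 5 libraries. They were higher in each STZ than in each Control library, as were the shares over all events. Whether these reads bear on the inclusion of the exon was not tested. No other annotated gene overlapped either event.

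The 5 libraries appear in the tables under codes, and 2 were taken as Control and 3 as STZ from the group sizes alone. The codes also form 2 series that split as the groups do, so treatment and a series of handling or sequencing cannot be told apart for any value below. Reads of all classes on the 6331 events numbered 12692236 to 14913419 in the STZ libraries and 17154734 to 20963751 in the Control libraries. Reads that fit 1 isoform only, called informative, numbered 2537025 to 2997882 in STZ and 3248471 to 4173228 in Control libraries. Of 12 heart muscle markers, 6 had a cassette exon event (Ttn, Tnnt2, Ldb3, Ryr2, Myom1 and Camk2d), with 38523 to 49424 summed reads per 1000000 event reads of the library (RPM) in STZ and 43815 to 45103 in Control libraries. The tables hold events only, so markers without an event were not measured.

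Inclusion of the Cers2 exon was lower in the STZ ventricles. The authors estimated it with MISO as Psi, which runs from 0, where all transcripts skip the exon, to 1, where all hold it. Psi was 0.86, 0.86 and 0.80 in STZ A, STZ B and STZ C, against 0.98 and 0.98 in Control A and Control B. All 3 STZ libraries lay below both Control libraries, which did not differ at the 2 decimals deposited. The mean was 0.84 ± 0.0346 in STZ (SD, n = 3) and 0.98 ± 0 in Control (SD, n = 2), a difference of −0.14. Among the 4769 exons with at least 10 informative reads in each library, 28.8% had every STZ value below every Control value, and nothing is read from the Cers2 exon being among them, since it was chosen on this comparison.

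The authors' deposited tables give a Bayes factor, the evidence for a difference in Psi over that for none, for each pair of an STZ and a Control library. It was at least 54.6 for Cers2, and so above 10 in 6 of 6 comparisons. Of the 6331 exons, 6.71% reached 10 in every comparison with 1 sign throughout. The difference in the authors' deposited tables, Control minus STZ, was 0.12 in the 4 comparisons with STZ A or STZ B and 0.18 in the 2 with STZ C. None of the 6 reached 0.20 (0 of 6), a size that 3.22% of exons reached in every comparison together with a factor of 10.

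**Figure D2:**
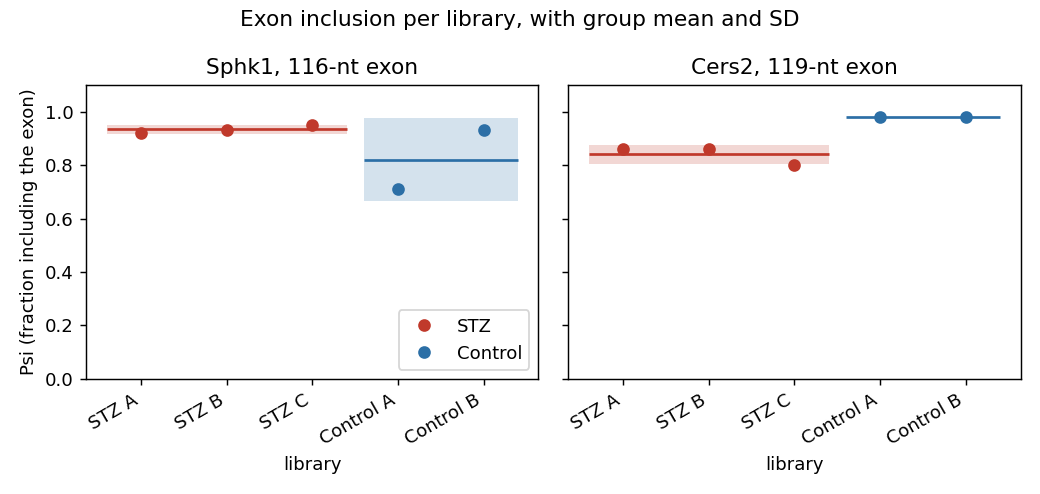
Psi of the Sphk1 exon (left) and the Cers2 exon (right) in each library, with STZ in red and Control in blue; points are the deposited estimates, lines the group means and bands the mean ± 1 SD (n = 3 STZ, n = 2 Control). Cers2 lies at 0.80 to 0.86 in STZ and at 0.98 in Control, while Sphk1 lies at 0.92 to 0.95 in STZ and at 0.71 and 0.93 in Control.

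The raw reads behind the Cers2 values are given by isoform. Reads that fit only the skipping isoform, which cross the junction of the upstream to the downstream exon printed above, numbered 13, 12 and 16 in STZ A, STZ B and STZ C, against 0 and 2 in Control A and Control B. They sum to 41 in STZ and 2 in Control, although the Control libraries were deeper. Reads that fit only the including isoform numbered 168, 141 and 133 in STZ A, STZ B and STZ C, against 292 and 311 in Control A and Control B. The inclusion-only counts are not scaled for depth. A tested exon had a median of 94 to 118 informative reads in the STZ libraries and 154 to 192 in the Control libraries. How many exons show such separation of raw counts was not counted.

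As a share of informative reads, skipping of Cers2 came to 7.18% in STZ A (95% exact Clopper-Pearson interval 3.88% to 12.0%), 7.84% in STZ B (4.12% to 13.3%) and 10.7% in STZ C (6.26% to 16.9%). It came to 0% in Control A, where 0 of 292 reads allow a share of up to 1.03%, and to 0.639% in Control B (0.0775% to 2.29%). The intervals cover counting error only. They are not used to test the groups, since the exon was chosen on this comparison. The reads carry no molecular identifiers, so copies of 1 molecule may be counted more than once. Taken from these reads alone, the included share was 0.914 ± 0.0189 in STZ (SD, n = 3) and 0.997 ± 0.00452 in Control (SD, n = 2). This share is not corrected for the larger number of positions from which a read can come from the including isoform, and its difference of −0.0827 was smaller than that of Psi.

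Scaled by all event reads of the library, the Cers2 event as a whole had overlapping levels in the groups. It had 106.3, 96.6 and 124.6 RPM in STZ A, STZ B and STZ C, against 123.0 and 123.1 in Control A and Control B. The groups overlapped, since STZ C was above both Control libraries while STZ A and STZ B were below them. The mean was 109.1 ± 14.2 in STZ (SD, n = 3) and 123.0 ± 0.0505 in Control (SD, n = 2), a ratio of 0.887. The median of all 6331 events had a ratio of 0.845, or −0.24 on the log2 scale, and relative to it the Cers2 event was at 1.05. The difference in means was −13.9 RPM as scaled here and turned to 6.07 when libraries were scaled to the median event. Inclusion-only reads of Cers2 were at 11.3, 9.7 and 10.5 RPM in STZ A, STZ B and STZ C, against 17.0 and 14.8 in Control A and Control B, a ratio of 0.658. Skipping-only reads were at 0.872, 0.826 and 1.26 RPM in the same STZ libraries, against 0 and 0.0954 in Control A and Control B. Fewer reads per event can reflect fewer cells of a type or less RNA per cell, which bulk tissue cannot tell apart.

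The 5 exons of other genes most like the Cers2 exon were found by Psi over the 5 libraries, by the largest absolute difference in any library. The closest was a 110-nt exon of Bag2, a co-chaperone of the Hsp70 system, which stayed within 0.01 of Cers2 in every library. Its Psi was 0.85, 0.85 and 0.80 in STZ A, STZ B and STZ C, against 0.98 and 0.98 in Control A and Control B. Exons of Ubap1 (183 nt), Eif4a2 (140 nt), Mphosph8 (155 nt) and Vwa5a (76 nt) followed, each within 0.03. These exons were picked for likeness over 5 libraries among 4769 exons, and the likeness is a description.

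The Sphk1 event was far more abundant in the STZ ventricles, while the inclusion of its exon did not separate the groups. The event had 177.8, 189.1 and 239.9 RPM in STZ A, STZ B and STZ C, against 5.95 and 6.92 in Control A and Control B. Even the lowest STZ library was 25.7-fold above the higher Control library, and the widest pair differed 40.3-fold. The mean was 202.3 ± 33.1 in STZ (SD, n = 3) and 6.43 ± 0.686 in Control (SD, n = 2), a ratio of 31.5 or 4.98 on the log2 scale. Relative to the median event the ratio was 37.2. It ranked 3 of 6331 events by this ratio, where 26.2% of events had every STZ value above every Control value and 0.332% were at least 10-fold higher in STZ.

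The raw reads give the depth behind the Sphk1 ratio. The event held 2652, 2748 and 3045 reads in STZ A, STZ B and STZ C, against 102 and 145 in Control A and Control B. They sum to 8445 in STZ and 247 in Control. The Control libraries had the fewest Sphk1 reads although they had the most event reads in all.

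Each class of Sphk1 read that was seen in Control was higher in STZ, by a similar factor. Reads that fit both isoforms averaged 144.1 ± 24.3 RPM in STZ (SD, n = 3) and 4.72 ± 0.000501 in Control (SD, n = 2), a ratio of 30.5. For inclusion-only reads the ratio was 35.0 and for reads fitting neither isoform 33.1. The make-up of the event was accordingly similar. Reads fitting both isoforms took 72.2%, 69.7% and 71.7% of it in STZ A, STZ B and STZ C, against 79.4% and 68.3% in Control A and Control B. Reads fitting neither took 16.5%, 17.8% and 15.1% in the same STZ libraries, against 12.7% and 17.9% in Control A and Control B. On both shares the groups overlapped.

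**Figure D3:**
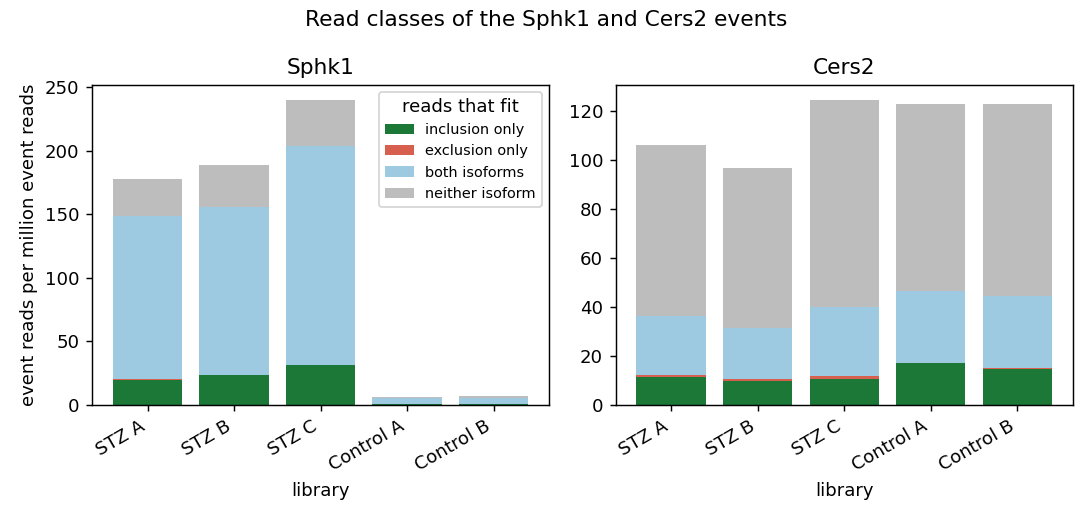
Reads on the Sphk1 event (left) and the Cers2 event (right) in RPM, one bar per library, stacked by the isoform they fit. Sphk1 stands at 177.8 to 239.9 in STZ and at 5.95 and 6.92 in Control with like shares of the classes, and Cers2 stands at 96.6 to 124.6 in STZ and at 123.0 and 123.1 in Control.

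Inclusion of the Sphk1 exon was high in the 3 STZ libraries and rested on few reads in both Control libraries. Psi was 0.92, 0.93 and 0.95 in STZ A, STZ B and STZ C, against 0.71 and 0.93 in Control A and Control B. The groups overlapped, because Control B equalled STZ B and lay above STZ A. The mean was 0.933 ± 0.0153 in STZ (SD, n = 3) and 0.82 ± 0.156 in Control (SD, n = 2), a difference of 0.113 that rested on Control A. Without Control A the difference was 0.00333, and without Control B it was 0.223.

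The depth behind Sphk1 inclusion was very uneven. Informative reads numbered 301, 344 and 400 in STZ A, STZ B and STZ C, against 8 and 20 in Control A and Control B. In both Control libraries all of them were of the including isoform. The skipping isoform thus had 0 reads in both Control libraries, which allows a share of up to 37.5% in Control A and 15.0% in Control B. With under 10 informative reads in Control A, the exon was not among the 4769 tested, so 1 of the 2 exons, that of Cers2, met the minimum.

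Skipping of Sphk1 was seen at a low level in the STZ libraries. Reads of the skipping isoform alone numbered 4 in each of STZ A, STZ B and STZ C, beside 297, 340 and 396 inclusion-only reads. The skipped share of informative reads was 1.33% in STZ A (95% exact Clopper-Pearson interval 0.363% to 3.37%), 1.16% in STZ B (0.318% to 2.95%) and 1.00% in STZ C (0.273% to 2.54%). A difference from Control was not detectable at this depth, since the limits for the Control libraries lie far above these shares. The Bayes factor of the authors' deposited tables was at least 10 in 0 of 6 comparisons for Sphk1, with values from 0.1 to 2.98. The 3 comparisons with Control A had a difference of at least 0.20 in size and those with Control B of at most 0.02.

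Cers2 and Sphk1 therefore differed between the groups in separate measures. The Cers2 event, counted over all read classes, had a level near the median event and a Psi lower by 0.14. The Sphk1 event had a level higher by a factor of 31.5 and overlapping Psi. Most reads behind the Cers2 level fitted neither isoform. Without such reads its ratio of STZ to Control was 0.819, and on informative reads alone 0.694. In the STZ libraries skipping took a larger share of informative reads in Cers2, at 7.18% to 10.7%, than in Sphk1, at 1.00% to 1.33%. The shares were set side by side within libraries, without a test. They have no correction for the lengths of the exons, which differ by 3 nt, or for the unlike flanking segments. Reads fitting neither isoform made up 65.7% to 67.9% of the Cers2 event in STZ libraries and 15.1% to 17.8% of the Sphk1 event.

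**Figure D4:**
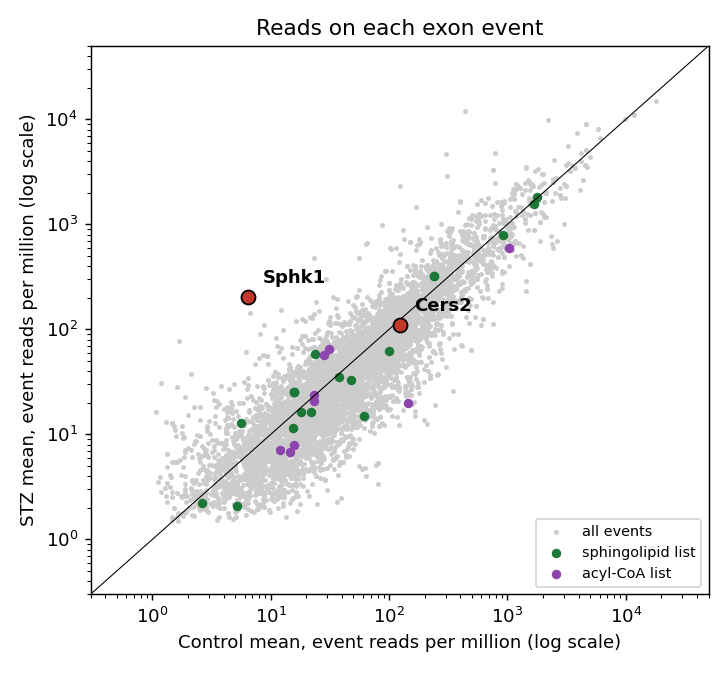
Mean event RPM for each of 6331 events, STZ on the y axis and Control on the x axis, both on log scales, with the line of equal values. Sphk1 (202.3 in STZ, 6.43 in Control) stands far above the line, and Cers2 (109.1 in STZ, 123.0 in Control) lies close to it.

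Event reads of some markers of other cell types did not overlap between the groups. Such separation was common, as 26.2% of the 6331 events had every STZ value above every Control value. The share of events with every STZ value below every Control value was not counted. As the median event had a ratio of 0.845, nothing is read from a marker being lower without overlap. Of 7 endothelial markers 1 had an event, Pecam1, with 3107 to 5332 RPM in STZ and 1396 to 1548 in Control libraries, a ratio of 2.83 without overlap. Of 5 smooth muscle markers 2 had an event and went opposite ways. Myh11 was at 110.6 to 181.3 RPM in STZ and 49.6 to 56.4 in Control libraries, a ratio of 2.81, and Smtn at 648.7 to 808.6 in STZ and 2564 to 2700 in Control, a ratio of 0.274. The summed level of both was 759.3 to 963.3 in STZ and 2620 to 2749 in Control, a ratio of 0.324 that follows Smtn. Of 7 fibroblast markers 2 had an event, Fn1 and Postn, with a summed level of 68.7 to 126.1 RPM in STZ and 160.2 to 187.4 in Control. The ratio was 0.69 for Fn1 and 0.39 for Postn, and for Postn alone the groups overlapped. Of 5 leukocyte markers 2 had an event, Ptprc and Cd74, with 16.0 to 38.1 RPM summed in STZ and 83.0 to 140.7 in Control and ratios of 0.403 and 0.21. The summed heart muscle markers overlapped with a ratio of 1.01, while single genes ran from 0.298 for Ryr2 to 1.41 for Ldb3. The ratio of the Sphk1 event was 31.5, and the part of cell composition in the values of Sphk1 and Cers2 was not tested.

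The other genes of the pathway were read from a list of 69 sphingolipid genes, chosen with earlier results of these data known. Of these 13 had 19 events, and 16 exons of 10 genes could be tested. Exons were called changed at an adjusted p under 0.05 in limma, which 15.0% of the 4769 tested exons passed, 10.1% with lower and 4.84% with higher Psi in STZ. On the list 4 of 16 exons (25.0%) were called, 2 higher and 2 lower, and 2 of the 4 changed by at least 0.10, which 10.2% of tested exons did with a call. The median change of Psi on the list was 0.0141, against −0.01 over all tested exons. With so few exons the counts are a description of the list.

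Of the list's exons with a called change of at least 0.10, both were lower in STZ. A 155-nt exon of Plpp1, a lipid phosphate phosphatase that can dephosphorylate sphingosine-1-phosphate, fell to a Psi of 0.573 ± 0.0451 in STZ (SD, n = 3), against 0.78 ± 0 in Control (SD, n = 2), with an adjusted p of 0.0265 in limma. The call held without STZ A (adjusted p = 0.028) and was lost without STZ B (0.0944), STZ C (0.0548), Control A (0.121) or Control B (0.127). The model of the reads alone gave an adjusted p of 0.0103. A 170-nt exon of Glb1, the lysosomal beta-galactosidase, fell to 0.85 ± 0.052 in STZ (SD, n = 3), against 0.98 ± 0 in Control (SD, n = 2), with an adjusted p of 0.0328 in limma. Its skipping-only reads numbered 0 in STZ and 1 in Control, and the model of the reads alone gave an adjusted p of 0.807. The Glb1 call held without STZ C (0.0074) and was lost without STZ A (0.0883), STZ B (0.0991), Control A (0.142) or Control B (0.148).

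The 2 called rises were small, and neither was called from the reads alone. A 104-nt exon of Samd8, a relative of the sphingomyelin synthases, had a Psi of 0.0333 in STZ and 0.01 in Control (adjusted p = 0.0197 in limma), and a 99-nt exon of Spns2 had 0.993 in STZ and 0.98 in Control (adjusted p = 0.00715 in limma). The Samd8 value rested on 2 inclusion-only reads in STZ and 0 in Control, and the model of the reads alone gave an adjusted p of 0.361. Spns2 had 0 skipping-only reads in either group and an adjusted p of 1.0 in that model, and its Psi lay at or above the clip of 0.99 in all STZ libraries and at 0.98 in both Control libraries, so that its limma fits had no spread within a group. The Samd8 call held without STZ A (0.026) and was lost without STZ B (0.0619), STZ C (0.0626), Control A (0.0926) or Control B (0.0983). Among exons not called in limma, those with the most informative reads included 3 of Psap, the precursor of the saposins. The others were a 152-nt exon of Plpp1 and 2 overlapping exons of Ormdl2, a regulator of serine palmitoyltransferase. The Psap exons had differences of −0.01 to 0, and the Plpp1 exon had a Psi of 0.873 in STZ and 0.90 in Control. The Ormdl2 exons of 254 and 300 nt had 0.813 and 0.743 in STZ, against 0.645 and 0.575 in Control. Their adjusted p-values were 0.214 and 0.346 in limma, but 0.0443 and 0.0233 in the model of the reads. That model called 3 of the 16 tested exons on the list and 1013 of all 4769.

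Set beside the list, the level of the Sphk1 event stood apart in size. Event reads on the 19 list events had ratios from 0.242 to 2.47 with a median of 0.929, and 2 of the 19 were at least 2-fold higher in STZ, as were 8.77% of all events. These were Spns2, which exports sphingosine-1-phosphate, at 58.4 RPM in STZ and 23.6 in Control, and Kdsr, the reductase of the de novo pathway, at 12.9 in STZ and 5.58 in Control. Sphk2, the other sphingosine kinase, was looked up after the Sphk1 values were seen. Its 71-nt exon had a Psi of 0.88 in STZ and 0.865 in Control, and its event had 33.0 RPM in STZ and 47.3 in Control, a ratio of 0.698.

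A second list held 21 genes of enzymes and proteins that elongate, activate or bind the acyl-CoA that ceramide synthases such as Cers2 use. Of these 6 had 9 events. Over all 4769 tested exons 15.0% were called in limma, 10.1% with lower Psi in STZ. At a share near these, 1 of the list's 8 tested exons (12.5%) was called, with lower Psi in STZ. This was a 140-nt exon of Acsl3, a long-chain acyl-CoA synthetase, at 0.15 ± 0.02 in STZ (SD, n = 3) and 0.515 ± 0.0778 in Control (SD, n = 2), with an adjusted p of 0.0191 in limma. The call held without Control A (0.0493) and was lost without STZ A (0.053), STZ B (0.0675), STZ C (0.0747) or Control B (0.063). The model of the reads alone gave an adjusted p of 0.0122, on 30 inclusion-only and 34 skipping-only reads in STZ and 54 and 12 in Control. Of the exons not called, that of Hacd1 (122 nt), a dehydratase of fatty acid elongation, had 0.58 in STZ and 0.825 in Control (adjusted p = 0.0575 in limma, 0.00514 in the model of the reads), and its event had 20.1 RPM in STZ and 144.4 in Control. Exons of Tecr, Elovl1, Acbd5, Hsd17b12 (108 nt) and Acsl3 (418 nt) had differences in mean Psi of −0.0583 to 0.00167 without a call.

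**Figure D5:**
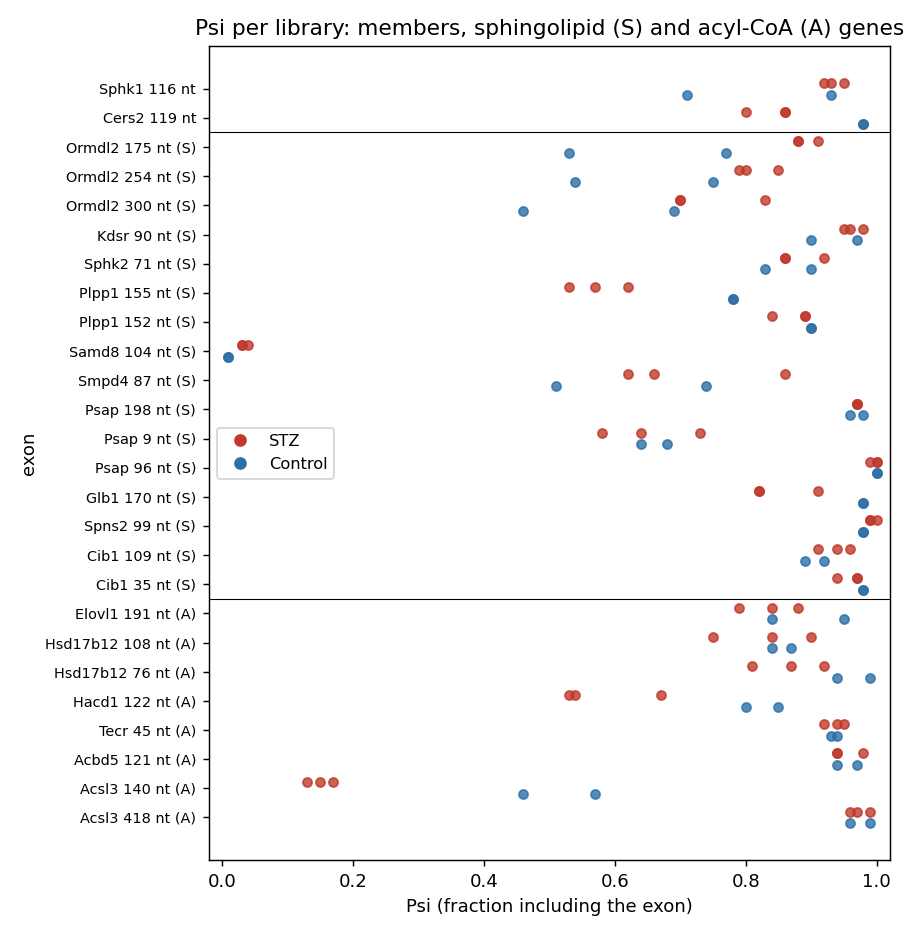
Psi of the Sphk1 exon, which had too few reads to be tested, and of each tested exon of Cers2 and the lists, in the 5 libraries on the x axis, with STZ points in red above Control points in blue; the upper rows are Sphk1 and Cers2, then the sphingolipid list (S) and the acyl-CoA list (A). In Cers2, Plpp1 (155 nt), Glb1 and Acsl3 (140 nt) every STZ point lies left of the Control points, while Sphk1 and Sphk2 overlap. Such separation is not particular to the named exons. In either direction it is seen in 9 of 16 sphingolipid and 3 of 8 acyl-CoA exons. Of all 4769 tested exons, 28.8% had every STZ value below every Control value.

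Short motifs of splicing factors were counted in the Cers2 and Sphk1 exons themselves, on the transcribed strand. The RBFOX motif GCATG was in neither exon (0 in each) and in 11.9% of the 731 cassette exons of this series of similar length. The CELF motif TGTGT occurred 1 time in the Sphk1 exon, 0 times in the Cers2 exon and in 9.44% of those exons. GCTT, a single form of the MBNL motif, occurred 1 time in Sphk1, 0 times in Cers2 and in 41.5% of them. Other forms of the MBNL motif were not counted, so its absence from the Cers2 exon cannot be read from this. These matches describe the letters of the exons, and introns were not searched.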

How the data were processed

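Per the submitters' processing notes, reads were handled with CASAVA 1.8.2 and TopHat against mm9. The authors then compared single libraries in pairs with MISO, per the file headers. For MISO, a version, event annotation and filters were not given in the sources used here. Psi was deposited by the authors as a fraction with 2 decimals, the Bayes factor as a ratio, and reads per event as counts in 4 classes, recorded here as the unit other, like the difference column. A library's values were equal in all 6 tables (0 differences). Interval bounds and assigned reads, 36 columns in all, were not used.

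Gene names came from the lengths of exons and introns in GENCODE M21 (5928 events) or from the files (321), and 367 had none. For 97.6% of 3348 events with both, these gave the same gene. Logit Psi, clipped at 0.01 and 0.99, was tested in limma 3.58.1 (two-sided, trend on log2 mean informative reads) over 4769 exons with at least 10 informative reads in each library, with Benjamini-Hochberg adjustment over all of them. Event reads were scaled to 1000000 reads (RPM) on the 6331 events in all tables. Limits for counts of 0 take 3 counts. The fits were tested on simulated data. A quasi-binomial model of the reads took the place of the planned count model and was added after seeing the data. Figures were drawn with matplotlib 3.10.9.

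Genes and lists were chosen with earlier results of these data known. Named list exons are all those called, plus up to 6 others per list with the most informative reads; Sphk2, Kdsr and Spns2 levels were named after their values were seen. Replicate numbers of the labels could not be matched to libraries, which are called A, B and C within a group.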

Additional observations from a re-analysis of the deposited data

How the results depend on the processing

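Psi of Cers2 kept its direction without any 1 library, at differences of −0.15 to −0.12, and was −0.0827 from informative reads alone, a measure without length correction. That of Sphk1 ran from 0.00333 to 0.223 without 1 library and was −0.0116 from informative reads. The Sphk1 event exceeded Control by 177.0 to 208.1 RPM without 1 library, by 121.8 on informative reads alone, scaled to their own total (34.6-fold) and by 313.1 without reads fitting neither isoform (32.2-fold). Scaled to the median event, a setting chosen after seeing the data, the ratio was 37.5. The Cers2 event changed sign with that scaling, to 6.07 from −13.9 RPM. Its difference was −15.2 without reads fitting neither isoform (ratio 0.819). On informative reads alone, scaled to their own total, it was −25.2 (ratio 0.694). Calls over all exons numbered 713, ran from 282 to 467 without 1 library, and came to 204 by a difference of 0.20 with a Bayes factor of 10 in all 6 comparisons. Sphingolipid calls numbered 4, ran from 1 to 3 without 1 library, and came to 1 with Psi clipped at 0.05 and to 0 by the authors' difference and Bayes factor. Acyl-CoA calls numbered 1, ran from 0 to 1 without 1 library, and came to 0 with at least 20 informative reads and to 2 in the quasi-binomial model of the reads. Fewer libraries or exons enter some of these fits, and otherwise the cause was not tested. The planned count model was not run. No paired analysis was possible because the library codes carry no replicate numbers of the labels. Depth limits the Control values of Sphk1 inclusion, which rest on 8 and 20 informative reads.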
